A study of Rattus norvegicus with 4 samples.

Results

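The genes described here encode the S100 proteins, the annexins and the galectins of the rat, measured in NR8383 cells, a macrophage line taken from rat lung lavage. Members were taken by RefSeq symbol: every gene whose symbol begins with S100a, Anxa or Lgals and a digit, with S100b, S100g, S100z and Lgals3bp, and with at least 1 array probe whose accession maps to it. This gave 37 genes with 45 probes, out of 16581 named genes with 21109 probes. They were 16 S100 genes, 11 annexins and 10 galectin genes. A further 4 protein-coding genes fit the symbols and had no named probe (Anxa9, S100a14, S100a11l1 and S100a11l2).

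All samples belonged to 1 group: 4 biological replicates of a water (H2O) control of 4 h, tagged ALI in the labels, a tag that they do not spell out. The line, part of which floats in culture, was used after 20 passages and had been plated for 48 h in flasks of 25 cm2. RNA with an integrity number above 7.5 was hybridised at 100 ng per sample to 1 one-colour array each. There was no second condition, so the results are levels, detection and the spread between replicates. All 12 macrophage markers checked were detected, whereas 11 of 48 markers of 8 other lung and blood cell types were. The 11 were Pecam1, Cdh5 and Vwf (3 of 6 for endothelium), Cd4 and Lck (2 of 6, T cell), Camp and Lcn2 (2 of 7, neutrophil), Pax5 (1 of 4, B cell), Napsa (1 of 6, alveolar type 2), Foxj1 (1 of 6, airway epithelium) and Dcn (1 of 6, fibroblast), with 0 of 7 for alveolar type 1. Of the rest, 3 were partly detected and 34 were not.

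Many proteins of these families work inside the cell, and a number of them also act outside it after leaving without a classical secretion signal. Lgals3bp, which is a conventionally secreted glycoprotein and no galectin, is included as a galectin ligand by its symbol. S100 proteins are small EF-hand proteins that change shape on binding calcium and then dock onto target proteins; once outside the cell some act as danger signals through Ager and Tlr4. Annexins bind acidic phospholipids when calcium rises and take part in membrane repair, exocytosis and the resolution of inflammation. Galectins bind beta-galactoside sugars on the cell surface, in the matrix, and on the inner face of ruptured lysosomes. Macrophages are known as a main source of galectin-3, once called Mac-2, and neutrophils as the main source of S100a8 and S100a9.

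A gene is called detected when the scanner software marked a probe of it as well above background on all 4 arrays, not detected when it marked none on any array, and partly detected otherwise. Levels are on a log2 scale whose 0 is the 75th percentile of the signals on that array. Probes differ in affinity, so a level follows 1 gene across the arrays and does not rank genes. Which array is high or low for a gene refers to these scaled values: with no scaling, replicate 3 was the highest array for 17 of the 18 detected members and for 89.7% of all tested genes. The 4 samples are labelled as biological replicates, and the labels do not say how their cultures were kept apart. RNA came from whole cultures, so few cells with much of a transcript and many cells with little of it cannot be told apart.

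Of the 37 genes, 18 were detected, 4 partly and 15 not. That is 48.6% detected, against 51.0% of all named genes, so the 3 families were detected about as often as genes in general. Over all named genes 6.43% were partly detected and 42.6% were not. Annexins were detected in 8 of 11 cases, galectin genes in 5 of 10 (4 of 9 without Lgals3bp) and S100 genes in 5 of 16. The 18 detected members stood far from the limit: their lowest signal on any array was an intensity of 97.5, and the lowest signal flagged well above background on an array lay between 18.1 and 21.5. Signals of the 15 genes not detected were 22.5 or lower. A limit drawn from the negative control spots gave another count, 13 detected members, because that limit was 748 on replicate 1, where 10 negative spots carried an outlier flag. S100a6, S100a13, Anxa3, Lgals1 and Lgals12, the dimmest of the 18, were below it there. Without negative spots of that kind, a choice made after the limit was seen, the limits were 5.71 to 6.29 and 21 members passed.

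**Figure D1:**
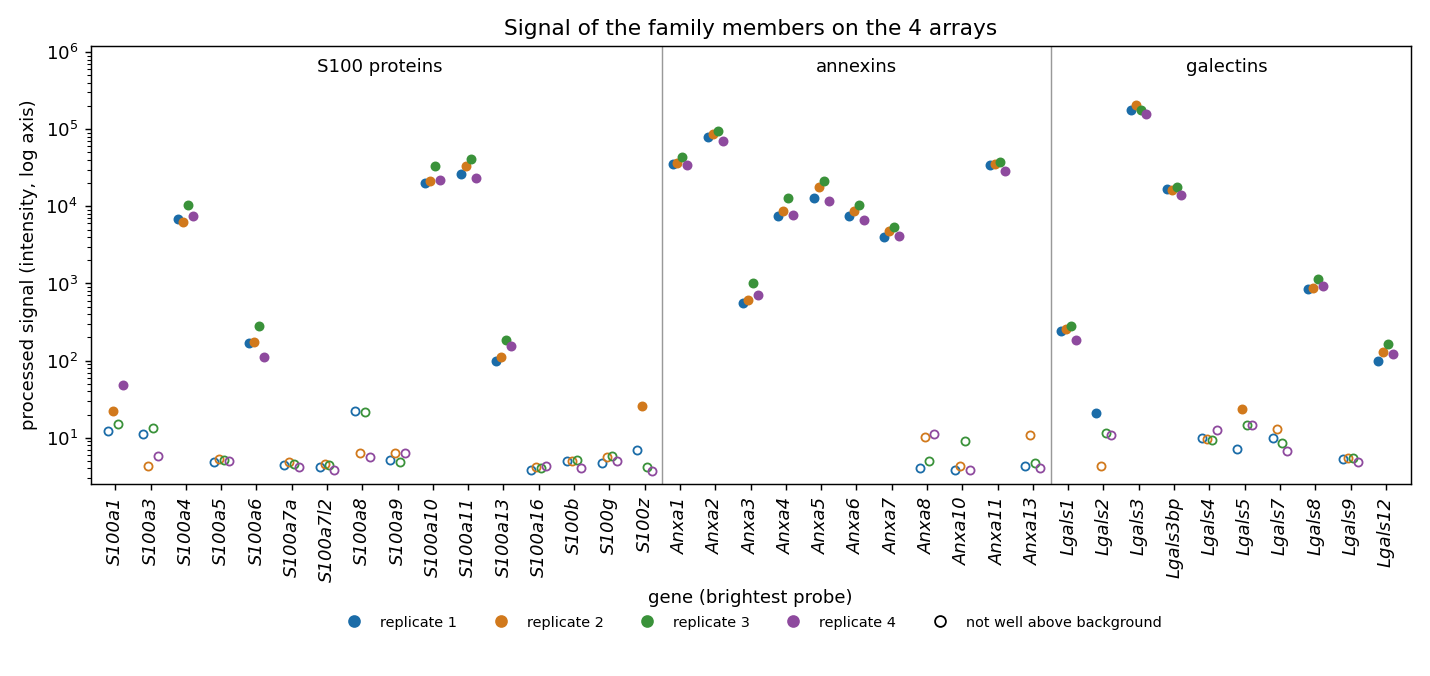
Processed signal (intensity, log axis) of each of the 37 genes by its brightest probe, 1 point per array; open circles mark arrays where the probe was not well above background. The detected genes lie at 97.5 or above on every array, and the genes not detected at 22.5 or below.

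The S100 genes split sharply. S100a4, S100a6, S100a10, S100a11 and S100a13 were detected. S100a1 and S100z were partly detected, and S100a3, S100a5, S100a7a, S100a7l2, S100a8, S100a9, S100a16, S100b and S100g were not. S100a10, also called p11, is the partner that holds Anxa2 at the membrane in a complex that binds plasminogen. It was at 4.51, 4.55, 4.78 and 4.76 on replicates 1 to 4 (4.65 ± 0.14, SD, n = 4). S100a11, a partner of Anxa1, was at 4.91, 5.13, 5.01 and 4.77 (4.95 ± 0.15, SD, n = 4). They spanned 0.27 and 0.36 between arrays. S100a4, which binds non-muscle myosin and is used as a marker of migrating cells, was at 2.97, 2.74, 3.05 and 3.18 (2.99 ± 0.19, SD, n = 4).

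S100a6, which binds the ubiquitin ligase adaptor Cacybp, had the widest span of the 5 detected S100 genes. It was at -2.36, -2.41, -2.12 and -2.92 (-2.45 ± 0.34, SD, n = 4), high on replicate 3 and low on replicate 4, a span of 1.74-fold. S100a13, known for the release of growth factors that lack a signal peptide, was at -3.17, -3.07, -2.75 and -2.43 (-2.86 ± 0.33, SD, n = 4), a span of 1.67-fold with replicate 4 highest. Neither passed the limma variance test, which sets the variance of a gene against that of genes of like signal (adjusted p = 0.898 for S100a6 and 0.959 for S100a13).

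S100a8 and S100a9 form calprotectin, the abundant calcium- and zinc-binding complex of neutrophils and inflammatory monocytes. The S100a8 probe gave intensities of 22.5, 6.36, 21.8 and 5.57 on replicates 1 to 4, higher on replicates 1 and 3 than on replicates 2 and 4, and it was not well above background on any of them. Its readings on replicates 1 and 3 did exceed the lowest signals that were flagged well above background there (19.2 and 20.7). The S100a9 probe gave 5.22, 6.30, 4.78 and 6.32, also not well above background. Above the limit of the negative control spots without outlier flags (5.71 to 6.29) lay S100a8 on 3 arrays and S100a9 on 2. By the looser flag (positive and significant) S100a8 passed on replicates 1, 2 and 3 and S100a9 on replicates 1, 2 and 4. Among 7 markers of neutrophils measured, the granule genes Camp and Lcn2 gave a detected signal, while Csf3r, Elane, Cxcr2, Mmp8 and Ltf did not. Whether the Camp and Lcn2 signals are related to the S100a8 and S100a9 readings was not tested.

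The partly detected S100 genes were faint. S100a1, a regulator of calcium cycling in muscle, gave intensities of 12.3, 22.0, 15.1 and 47.8 and was above background on replicates 2 and 4. S100z gave 6.90, 25.9, 4.16 and 3.72 and was above background on replicate 2. S100b, the glial S100 protein, is covered by a pair of probes with 10 spots each, and neither was above background on any array, with median spot intensities of 4.01 to 5.11 for the brighter probe.

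Most S100 genes lie in 1 cluster on rat chromosome 2, where RefSeq lists 15 of them in a row if unrelated genes are skipped. In that order the 13 with a named probe were S100a1 (partly detected), S100a13 (detected), S100a16 and S100a3 (not), S100a4 (detected), S100a5 (not), S100a6 (detected), S100a7a, S100a8, S100a9 and S100a7l2 (not), then S100a11 and S100a10 (detected). Detected genes were thus set among genes that were not, and S100a5 lies between S100a4 and S100a6. The run from S100a7a to S100a7l2 held no detected gene among 4. S100z lies on the same chromosome far from the cluster and was left out of the order.

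**Figure D2:**
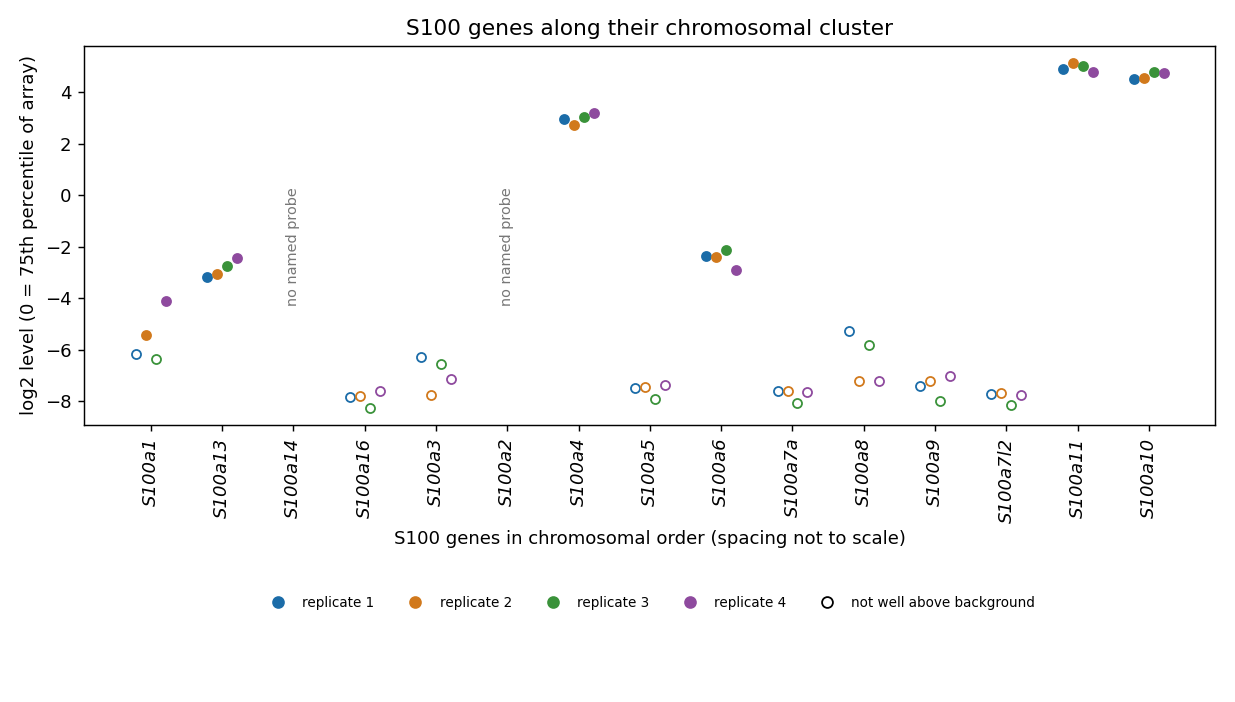
Log2 level (0 is the 75th percentile of the array) of the clustered S100 genes in chromosomal order, 1 point per array, with open circles where the probe was not well above background. S100a13, S100a4, S100a6, S100a11 and S100a10 are filled on all 4 arrays, with S100a5 open between S100a4 and S100a6.

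To show what differs in sequence between such neighbours, the 250 bases before the start site were taken from the RefSeq promoter table (build GRCr8), which holds 28 of the 37 members. Sequences run 5′ to 3′ on the strand of the gene. Motifs were searched on both strands, and capitals mark every match. The TATA box was searched as TATAAA. The GC box was searched as GGGCGG. The AP-1 site was searched as TGAGTCA. The C/EBP site was searched as TTGCNNAA, where N is any base. No match overlapped one of another kind. The promoter comparison, its motifs and the windows shown were chosen after the detection calls and a first look at these promoters. The S100 windows are S100a4 (chr2:178388279-178388528, plus strand), S100a5 (chr2:178394871-178395120, plus strand), S100a6 (chr2:178398287-178398536, plus strand) and S100a9 (chr2:178490623-178490872, minus strand).
S100a4: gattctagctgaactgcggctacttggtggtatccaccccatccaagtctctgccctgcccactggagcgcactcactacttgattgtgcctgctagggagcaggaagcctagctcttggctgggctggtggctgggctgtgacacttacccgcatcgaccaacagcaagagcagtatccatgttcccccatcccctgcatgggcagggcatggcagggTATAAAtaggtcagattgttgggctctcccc
S100a5: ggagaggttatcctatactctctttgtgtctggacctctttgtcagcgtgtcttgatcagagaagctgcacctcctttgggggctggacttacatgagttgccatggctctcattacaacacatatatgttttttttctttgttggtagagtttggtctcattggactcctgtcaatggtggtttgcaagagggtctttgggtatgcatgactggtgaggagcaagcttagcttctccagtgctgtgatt
S100a6: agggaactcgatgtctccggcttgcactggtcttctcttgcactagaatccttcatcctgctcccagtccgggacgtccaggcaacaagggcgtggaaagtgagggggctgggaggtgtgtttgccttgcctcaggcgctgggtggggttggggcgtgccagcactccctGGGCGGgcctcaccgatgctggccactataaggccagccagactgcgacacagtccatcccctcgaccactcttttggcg
S100a9: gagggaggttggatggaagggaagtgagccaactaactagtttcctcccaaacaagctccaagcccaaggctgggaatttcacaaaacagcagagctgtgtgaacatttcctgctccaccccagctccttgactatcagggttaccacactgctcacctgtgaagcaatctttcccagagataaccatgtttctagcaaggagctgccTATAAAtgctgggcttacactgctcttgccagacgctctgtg

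The S100a4 window has a TATA box that begins 31 bases before the start and no GC box. The S100a6 window has a GC box at 80 bases and no exact TATAAA match, and holds 12 CpG dinucleotides. It does hold the letters tataag, which the search did not count. S100a5, between S100a4 and S100a6, has none of the 4 motifs and 1 CpG. S100a9 has a TATA box at 42 bases and 1 CpG. A TATA box thus stood before a detected gene (S100a4) and before one that was not (S100a9). A match in these letters is a description and not a shown binding site.

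The annexins were the most widely detected family. Anxa1 to Anxa7 and Anxa11 were detected, and Anxa8, Anxa10 and Anxa13 were not. Anxa1, or lipocortin, is the glucocorticoid-induced annexin that signals through formyl peptide receptors to limit inflammation. It was at 5.33, 5.29, 5.14 and 5.38 (5.29 ± 0.10, SD, n = 4). Anxa2, the plasminogen-binding partner of S100a10, was at 6.49, 6.54, 6.24 and 6.38 (6.41 ± 0.13, SD, n = 4). Both had their lowest value on replicate 3, with spans of 0.24 and 0.30, but not with quantile normalization, where Anxa1 was lowest on replicate 2 and Anxa2 on replicate 1, nor with no scaling, where both were highest on replicate 3.

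Anxa5, the phosphatidylserine-binding annexin used to stain dying cells, was at 3.85, 4.26, 4.12 and 3.81 (4.01 ± 0.22, SD, n = 4). Replicates 2 and 3 lay above replicates 1 and 4, a span of 1.37-fold (adjusted p = 0.913, limma variance test). Anxa4, known in epithelial secretion and membrane repair, was at 3.09, 3.23, 3.36 and 3.23 (3.23 ± 0.11, SD, n = 4). Anxa6, the large annexin with a doubled core that acts in endosome traffic and repair, was at 3.08, 3.20, 3.07 and 3.02 (3.09 ± 0.08, SD, n = 4). Its SD was the smallest of the 18 detected members. Anxa7, or synexin, was at 2.18, 2.38, 2.10 and 2.33 (2.25 ± 0.13, SD, n = 4). Anxa11, which tethers RNA granules to lysosomes, was at 5.30, 5.24, 4.94 and 5.13 (5.15 ± 0.16, SD, n = 4), lowest on replicate 3.

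Anxa3, an annexin of neutrophil granules and phagosomes, rested on 1 of its 2 probes. The brighter probe was at -0.66, -0.60, -0.27 and -0.22 (-0.44 ± 0.22, SD, n = 4), higher on replicates 3 and 4 than on 1 and 2 (adjusted p = 0.971, limma variance test). The other was not well above background on any array, with intensities of 4.41, 7.13, 15.2 and 19.0. The detection call of Anxa3 therefore belongs to the first probe. Anxa8 gave intensities of 4.02 to 11.2, Anxa10 at most 9.03 by its brighter probe, and Anxa13 4.11 to 10.7. Anxa10 and Anxa13 are known as annexins of the stomach and the gut.

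The annexin windows shown contrast the 2 members whose promoters hold a TATA box and were detected, Anxa1 (chr1:227303733-227303982, minus strand) and Anxa2 (chr8:78986002-78986251, plus strand).
Anxa1: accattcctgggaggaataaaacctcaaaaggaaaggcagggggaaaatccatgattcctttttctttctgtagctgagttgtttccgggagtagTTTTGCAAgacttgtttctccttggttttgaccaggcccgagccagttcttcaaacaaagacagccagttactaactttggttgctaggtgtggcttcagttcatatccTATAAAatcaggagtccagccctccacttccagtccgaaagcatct
Anxa2: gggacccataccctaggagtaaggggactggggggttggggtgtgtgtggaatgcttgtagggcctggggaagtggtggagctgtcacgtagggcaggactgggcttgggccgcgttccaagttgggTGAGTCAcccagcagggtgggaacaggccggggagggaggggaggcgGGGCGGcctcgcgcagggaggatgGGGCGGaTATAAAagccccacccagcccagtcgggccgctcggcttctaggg

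Anxa1 has its TATA box 46 bases before the start, a C/EBP motif at 155 bases, no GC box and 3 CpG. Anxa2 has a TATA box at 45 bases, GC boxes at 76 and 52 bases, an AP-1 motif at 123 bases and 12 CpG, and was the 1 member with TATA, GC and AP-1 motifs together. The other TATA box among the annexins was that of Anxa10, which was not detected.

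Among the galectins, Lgals1, Lgals3, Lgals3bp, Lgals8 and Lgals12 were detected. Lgals2 and Lgals5 were partly detected, and Lgals4, Lgals7 and Lgals9 were not. Lgals3 encodes galectin-3, the macrophage galectin that binds sugars exposed on damaged phagosomes. Its brighter probe was at 7.67, 7.79, 7.16 and 7.55 (7.54 ± 0.27, SD, n = 4). Its other probe, with 10 spots per array, was at 7.42, 7.32, 6.62 and 7.08. Both probes had their lowest value on replicate 3, with deviations of -0.38 and -0.48 from their own means. For the 10-spot probe the brightest spot on replicate 3 (6.79) lay below the dimmest spot on any other array (6.94, on replicate 4).

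Other bright genes were also low on replicate 3. The 91 tested genes at levels above 6 had a median deviation of -0.25 on replicate 3 and of 0.13, 0.09 and 0.04 on replicates 1, 2 and 4. The 12 genes within 0.5 of the Lgals3 level had a median of -0.31 on replicate 3. With quantile normalization, which gives every array the same distribution, the brighter Lgals3 probe was at 7.51, 7.56, 7.51 and 7.60, a span of 0.09 in place of 0.62. The lower value of the brighter Lgals3 probe on replicate 3 was present under scaling by the 75th percentile, and not under quantile normalization or without scaling, where replicate 4 was lowest (span 0.40). The limma variance test gave an adjusted p of 0.965 under the first.

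Lgals3bp, the secreted ligand of galectin-3, was at 4.25, 4.13, 3.86 and 4.07 (4.08 ± 0.16, SD, n = 4), also lowest on replicate 3. Lgals1, the dimeric galectin known to induce death of activated T cells, was at -1.86, -1.87, -2.14 and -2.22 (-2.02 ± 0.18, SD, n = 4). By array means, replicates 1 and 2 lay above replicates 3 and 4 (adjusted p = 0.995, limma variance test). Its single spots overlapped: the lowest of 10 on replicate 1 was -2.06 and the highest on replicate 4 was -2.03.

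Lgals8, a tandem-repeat galectin that recruits autophagy receptors to broken vesicles, was read by 3 probes that were all detected. They were at -0.03, -0.10, -0.10 and 0.14, at -0.74, -0.76, -0.71 and -0.64, and at -0.85, -0.97, -0.90 and -0.72. All 3 were highest on replicate 4, by 0.07 to 0.16 above their own means. Lgals12, a galectin of fat cells and lipid droplets, rested on 1 of 2 probes, at -3.17, -2.86, -2.92 and -2.77 (-2.93 ± 0.17, SD, n = 4). The other gave intensities of 8.47 to 13.8 and was not well above background.

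Lgals9 encodes galectin-9, the tandem-repeat galectin that binds the receptor Havcr2 (Tim-3). Its probe gave intensities of 5.38, 5.46, 5.38 and 4.78, and Havcr2 was not detected either. Lgals5, a rat gene closely related to Lgals9, gave 7.16, 23.6, 14.5 and 14.4 by its brighter probe and was above background on replicate 2. Lgals2 gave 20.9, 4.35, 11.5 and 10.7 and was above background on replicate 1. The epithelial galectins Lgals4 and Lgals7 were not detected, with intensities of 9.38 to 12.5 and of 6.70 to 13.1. For Lgals7, 3 of 10 spots on replicate 4 were flagged above background.

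Promoter windows of the tandem-repeat galectins Lgals8, which was detected, and Lgals9, which was not, are set side by side. They lie at chr17:62719603-62719852, plus strand and at chr10:64428071-64428320, minus strand.
Lgals8: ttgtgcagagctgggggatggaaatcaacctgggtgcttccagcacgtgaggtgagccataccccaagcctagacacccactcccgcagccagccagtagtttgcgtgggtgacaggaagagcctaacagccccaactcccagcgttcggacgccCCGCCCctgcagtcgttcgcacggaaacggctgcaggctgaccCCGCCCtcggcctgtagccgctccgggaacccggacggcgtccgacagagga
Lgals9: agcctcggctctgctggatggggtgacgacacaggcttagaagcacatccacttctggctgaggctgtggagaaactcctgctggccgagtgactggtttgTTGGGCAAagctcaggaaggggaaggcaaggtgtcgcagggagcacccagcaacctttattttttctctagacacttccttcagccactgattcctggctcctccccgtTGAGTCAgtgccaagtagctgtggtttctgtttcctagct

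The Lgals8 window has GC boxes on the opposite strand at 95 and 52 bases and 19 CpG. The Lgals9 window has no GC box, a C/EBP motif at 149 bases, an AP-1 motif at 40 bases and 5 CpG. Neither has a TATA box.

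Across the 28 members with a promoter window, detected genes held more CpG dinucleotides. The detected S100a10, Anxa6, Lgals1, Lgals3 and Lgals12 had no window, nor had S100a1, S100a8, S100g and Anxa13. The 13 detected members had a median of 12 CpG in 250 bases (range 3 to 24), and the 12 not detected a median of 2.5 (range 0 to 6). The same difference in direction was seen over all named genes with a window, the background used below. Their medians were 16 for 7093 detected genes and 5 for 5630 that were not. The GC box was present in 9 of 13 detected members and in 2 of 12 not detected (S100a3 and S100a7a). Over all named genes its shares were 58.4% and 29.4%, and over all 27457 promoters 32.4%. A TATA box was present in 4 of 13 detected members and 2 of 12 not detected, against 6.80% and 17.6% over all named genes and 13.1% of all promoters. An AP-1 motif was present in 3 of 28 members (Anxa2, Anxa10 and Lgals9), against 3.98% of all promoters. The C/EBP motif was present in 1 of 13 detected members (Anxa1) and 2 of 12 not detected (Lgals7 and Lgals9), against 7.73% and 10.9% over all named genes and 9.20% of all promoters. The detected members with fewest CpG were Anxa1 (3), S100a4 (4) and Lgals3bp (4), and each of these had a TATA box. These counts are descriptions over few genes, and the detection of a gene also depends on its probe.

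**Figure D3:**
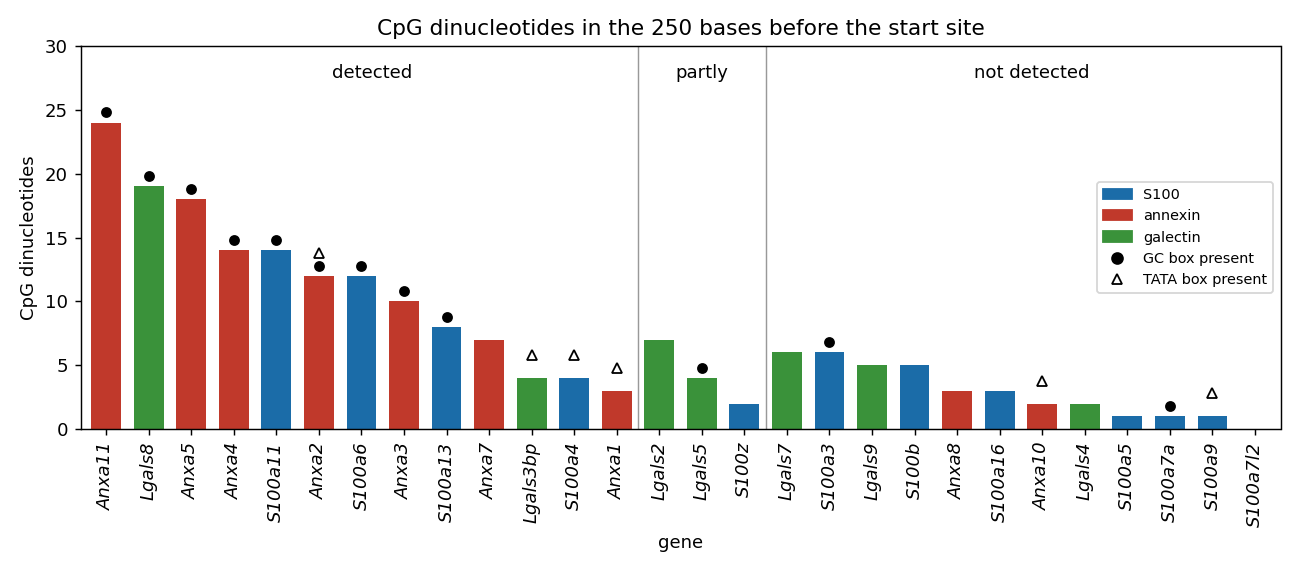
Number of CpG dinucleotides in the 250 bases before the start site for 28 members, grouped by detection and coloured by family; dots mark a GC box and triangles a TATA box. Detected members reach 24 (Anxa11), and members not detected reach 6 (Lgals7 and S100a3).

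The median SD over the 18 detected members was 0.161 on the log2 scale, against 0.144 over the 8455 genes tested. The gap depended on the arrays kept. It was 0.129 against 0.128 without replicate 3, and 0.158 against 0.124 without replicate 4. With all 4 arrays the median SD was 0.185 for the 5 S100 genes, 0.130 for the 8 annexins and 0.172 for the 5 galectin genes. The first and the last lay above the median of all genes and the annexins below it. The SD was above the value fitted for genes of like signal in 12 of 18 members (5 of 5 S100 genes, 4 of 8 annexins and 3 of 5 galectin genes), against 43.0% of all tested genes. No detected member spanned more than 2-fold between its highest and lowest array, against 3.26% of all tested genes; the widest was S100a6, at 1.74-fold. In the limma variance test 0 of 18 members passed at an adjusted p of 0.05 and 0 had an unadjusted p under 0.05. The background was 0.237% of tested genes by the adjusted and 6.29% by the unadjusted p. The fit without a trend on signal also called 0 of the 18. Adjusted p-values of the members lay between 0.898 and 0.995 (limma).

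No array was high or low for all members. The 18 genes were highest on replicates 1 to 4 in 3, 6, 3 and 6 cases, where 16.4%, 26.2%, 19.6% and 37.8% of all tested genes were. They were lowest in 5, 1, 7 and 5 cases, against 24.5%, 17.4%, 36.7% and 21.3%. By family, 0 of 5 S100 genes, 4 of 8 annexins and 3 of 5 galectin genes were lowest on replicate 3, a difference that was not tested and that depended on the scaling. With quantile normalization 0, 2 and 1 were, 3 of 18 members in all against 27.8% of tested genes, and 5 of 18 were highest there, against 27.4%. With no scaling 0 of 18 were lowest on replicate 3, against 1.29%. S100a10 was 0.13 above its own mean on replicate 3, where genes of like level had a median of -0.10. By a comparison added after the levels were seen, each deviation was set against the 5th to 95th percentile of genes within 0.5 of its level on the same array. Of 72 deviations, 12 (16.7%) lay outside, where 10% do by construction. They belonged to 9 genes, among them S100a4, low on replicate 2, S100a6, high on replicate 3 and low on replicate 4, and Anxa5, high on replicate 2 and low on replicate 4. The 4 deviations of a gene sum to 0 and are not independent. For Lgals3 the band rests on only 12 genes.

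**Figure D4:**
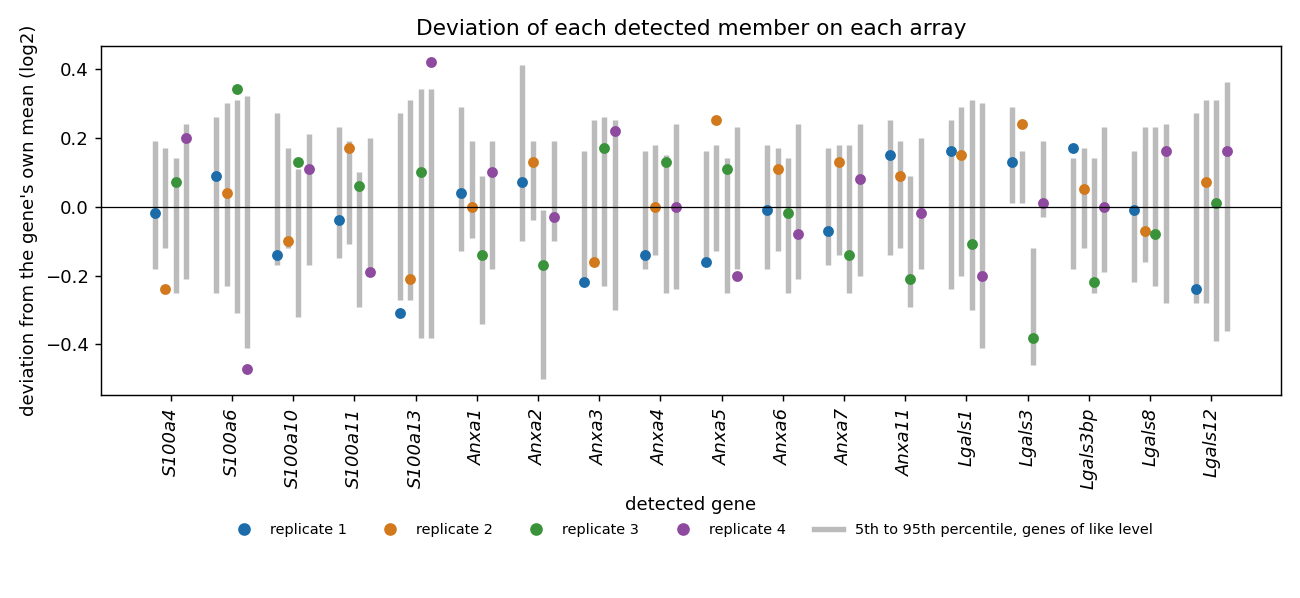
Deviation of each of the 18 detected genes from its own mean (log2), 1 point per array, over a grey bar for the 5th to 95th percentile of genes of like level on that array. Lgals3 is low on replicate 3 (-0.38), where the bar for genes of like level lies below 0 as well, and S100a6 (-0.47 on replicate 4) and S100a13 (0.42 on replicate 4) reach past their bars.

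Replicate spots, also examined after the levels were seen, gave the error within an array. Of the detected members, 5 had a probe printed in 10 spots: Anxa1, Lgals1, Lgals3, S100a10 and S100a11. The SD between spots of 1 array had a median over arrays of 0.0625 for Anxa1, 0.125 for Lgals1, 0.0752 for Lgals3, 0.108 for S100a10 and 0.0757 for S100a11. The SD between array means was larger for each, at 0.102, 0.182, 0.353, 0.140 and 0.153 in that order. Among all 1044 detected probes with 10 spots or more, this was so for 65.6%. The largest standard error of an array mean was 0.046 (Lgals1 and Lgals3), below the SD between array means of each of these 5 genes. Single pairs of arrays lay closer than that, such as replicates 1 and 2 for Lgals1 (-1.86 and -1.87) and replicates 3 and 4 for S100a10 (4.78 and 4.76). For the comparison with the standard error, no share over all probes is given. The error between spots of 1 array does not cover RNA extraction, labelling, hybridisation, scanning and scaling, which differ between arrays.

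**Figure D5:**
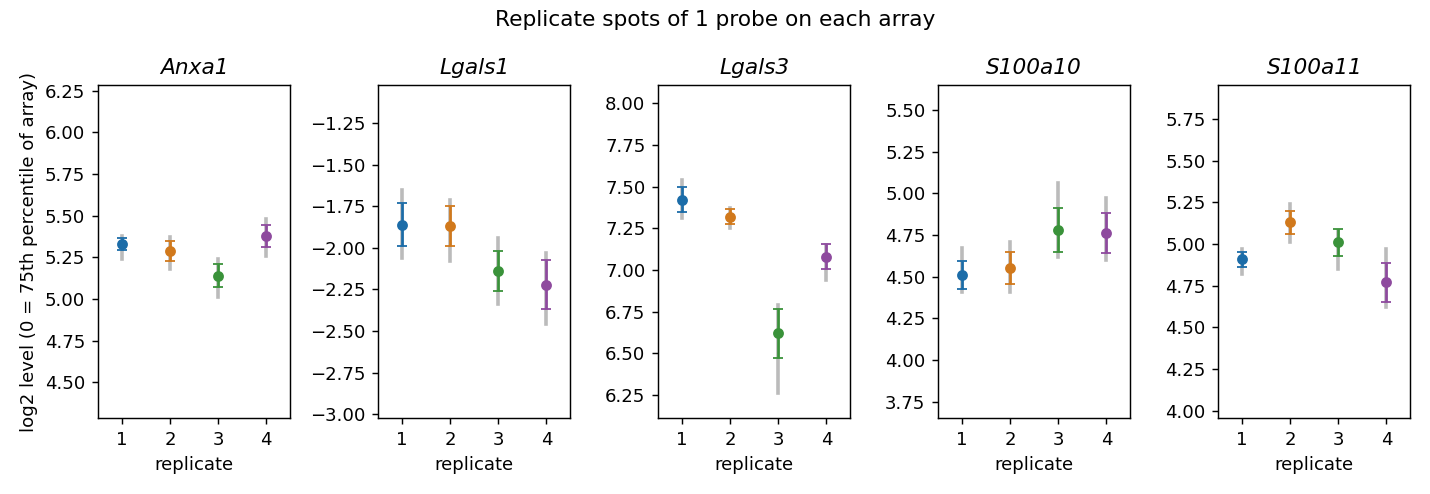
Log2 level (0 is the 75th percentile of the array) of the 5 detected probes with 10 spots, by replicate; dots are means, error bars the SD between spots of 1 array and grey lines the range of spots without an outlier flag. Each panel covers 2 log2 units, and Lgals3 on replicate 3 (6.62) lies apart from its other arrays.

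Receptors and partners of the families were mostly detected, 71 of 87 genes in 5 lists, against 51.0% of all named genes; many of these genes are used by most cells. Of 15 S100 receptors and partners, 14 were detected. They include the lipopolysaccharide receptor Tlr4 (-0.31 ± 0.20, SD, n = 4) with its cofactors Ly96 (0.40 ± 0.18) and Cd14 (0.10 ± 0.26), and Bsg, the CD147 receptor of S100a9 (1.96 ± 0.45). Ager, the receptor for advanced glycation end products, was the 1 gene not detected, and Ahnak, the scaffold bound by S100a10, had no named probe.

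Of 14 annexin receptors and partners, 9 were detected, 1 partly and 4 not. Plg (-2.27 ± 0.15, SD, n = 4), which encodes plasminogen, was detected, as were the plasminogen and urokinase receptors Plgrkt (-1.56 ± 0.42) and Plaur (-2.01 ± 0.42) and the phospholipase Pla2g4a (-2.07 ± 0.09). The Anxa1 receptor Fpr1, the plasminogen activator Plat, Nedd4 and Egfr were not detected, and Plau was above background on 1 array. Fpr2, Fpr3 and Prkca had no named probe. Of 16 genes of plasma membrane repair, 11 were detected, including the repair protein Dysf (-2.99 ± 0.35), the acid sphingomyelinase Smpd1 (3.60 ± 0.15) and the calpains Capn1 (2.10 ± 0.18) and Capn2 (2.65 ± 0.13). Trim72, Cav1, Cavin1, Syt7 and Tsg101 were not, and Myof and Chmp4b had no named probe.

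Of 23 genes of galectin ligands, glycan enzymes and lysosomal damage, 18 were detected. The branching enzymes that build galectin ligands were among them: Mgat1 (-0.27 ± 0.12, SD, n = 4), Mgat2 (-1.03 ± 0.36), Mgat5 (-3.14 ± 0.50) and the galactosyltransferase B4galt1 (-1.37 ± 0.08). Mgat5 was at -2.91, -3.55, -3.56 and -2.53, over 2-fold between replicates 3 and 4 (adjusted p = 0.659, limma variance test). Havcr2, Lag3, Spn and Trim16 were not detected, St6gal1 was above background on 1 array, and Calcoco2 had no named probe. All 19 genes in a list of other calcium-binding or calcium-handling proteins were detected. Among them were Calm2 at -1.68 ± 0.68, Calm3 at 3.85 ± 0.13 and sorcin (Sri) at 1.93 ± 0.10 (SD, n = 4). Calm2 was at -1.27, -1.43, -1.31 and -2.69, more than 2-fold lower on replicate 4 (adjusted p = 0.156, limma variance test). One array stood apart by the gap to its nearest neighbour for 0 of the 18 members, against 6.20% of all tested genes.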

How the data were processed

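RNA from 4 samples of 1 group, labelled as biological replicates, was read on 4 one-colour arrays of 1 slide. The deposited values are linear spot intensities with flags per spot, made by Agilent Feature Extraction 11.0.1.1, per the submitters' processing notes. The build in the file headers is rn4, and no array coordinates are given. Accessions were matched without versions to RefSeq (GRCr8), and promoter windows by symbol.

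Control spots and spots with an outlier flag were left out. From the log2 processed signals of each array its own 75th percentile was subtracted (intensities of 878, 932, 1237 and 831 on replicates 1 to 4). Between 49.2% and 50.3% of gene spots per array were well above background, and none was saturated. Pearson's r between arrays was 0.990 to 0.994 across 17324 detected probes, which are not independent replicates. A probe counted as above background when more than 50% of its spots did. Genes with several probes took the brightest for levels and any probe for detection. The number of arrays limits the precision.

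Variance was tested over 8455 genes in limma 3.58.1 (R 4.3.3). The fit used an intercept only, with the trend and robust settings. An upper-tail F test set each variance against the fitted variance with the largest prior degrees of freedom, with Benjamini-Hochberg adjustment. The test was tried on data simulated from its own fitted model, which cannot show how it behaves where that model fails. Its power with 4 arrays is not reported here. Other steps used Python 3.11.15. The text names all members, levels of each detected one, and from each partner list the first 4 detected genes, those over 2-fold and those partly or not detected; some genes of the lists are not reported here.

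Members and lists were chosen with earlier results of these data known. The comparison with genes of like level, the replicate spots, the chromosomal order and all promoter work were added after the data were seen. No protein sequence was used here, although the naming rule had allowed for it. Alternatives were other flags, array counts, probe rules, background correction, normalization and leaving out each replicate. A negative control limit without outlier spots, and the centring of the quantile values, were chosen after a first result was seen.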

Additional observations from a re-analysis of the deposited data

Results flagged for a closer look

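For 38 genes with printed levels, the array farthest from the others was checked for a gap to its nearest neighbour above Dixon's 95% critical value for 4 samples. Chance flags about 1 in 20 such groups, and 6.20% of the 8455 tested genes were above it. None of the 18 detected family members was, and 4 of the partner genes were. Plgrkt, the plasminogen receptor, was low on replicate 4 (-2.18, against -1.36, -1.36 and -1.33; gap 0.964 of the range). Calm2 was low on the same array (-2.69, against -1.27, -1.43 and -1.31; gap 0.889). Capn2 was high there (2.84, at most 2.6 on the others; gap 0.864). Calm3 was low on replicate 3 (3.65, against 3.92, 3.90 and 3.93; gap 0.885).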

How the results depend on the processing

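Detected members numbered 22 with the positive and significant flag, 13 with the planned negative control limit, 21 with that limit after negative spots with an outlier flag were left out, and 18 under each other alternative. Members not detected numbered 4, 9 and 7 under those 3 rules in place of 15. They numbered 18 with at least 3 of 4 arrays required, 16 without replicate 1 and 17 without replicate 2. Partner genes detected numbered 74, 53 and 73 under the 3 rules in place of 71. The third rule was added after the planned limit was seen to be 748 on replicate 1 and 7.17 to 10.7 on the others. Members over 2-fold numbered 1 with no scaling (S100a6, span 1.38), 1 with the mean of all probes (Anxa3) and 8 with no filter on dim probes, none of them among the 18. The median SD was 0.138 with normexp on the median signal (0.123 over all tested genes), 0.294 with no scaling (0.267) and 0.224 with no filter (0.219). It was 0.151 without replicate 1 (0.148), 0.159 without replicate 2 (0.145), 0.129 without replicate 3 (0.128) and 0.158 without replicate 4 (0.124). The cause was not tested. The limma variance test called 0 members under each of the 11 alternatives, with 0 to 3 at an unadjusted p under 0.05; over all genes it called 20, and from 3 (without replicate 3) to 79 (no filter). Of the 18 mean levels, 8 moved by more than their SD with normexp and 3 with the mean of all probes. Quantile values centred on the probes' own percentile, tried first, moved all 18 levels; centred as the main values they moved none. No paired analysis was possible because there is 1 group. Signal over background limits the genes near the detection limit, where the 4 partly detected members lie.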
